A study of Mus musculus with 2 samples.

Results

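The Reg genes code for small secreted C-type lectins, and the 5 described here are Reg1, Reg3a, Reg3b, Reg3g and Reg4. They were chosen by symbol, with their levels in these libraries already known, from the 32285 genes that both tables list, and all 5 were found in both. The values that chose them were their summed counts of unique molecular identifiers (UMIs, 1 per captured transcript) by cell type and library, so their levels and the differences between the libraries are a description with no test. The other family genes in the tables, Reg2 and Reg3d, had 20 and 63 UMIs in all epithelial cells.

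Intestinal cells came from MG53-TG mice, which overexpress MG53 (TRIM72, a membrane repair protein encoded by Trim72) throughout the body, and from their wild type (WT) littermates. Both groups drank 2.5% dextran sulfate sodium (DSS), which injures the gut lining, and cells were taken on day 7, so no library from mice without DSS is described. Crypts were dissociated, and 7-AAD-negative EpCAM-positive cells were sorted and captured with a 3′ droplet kit. There was 1 library per genotype, the number of mice in each is not given in the labels, and age, sex and strain are not given there either. The program version (Cell Ranger 4 for WT, 6.0.1 for MG53-TG), the barcode list and the library coincide with genotype, so an effect of the transgene and a difference between the libraries cannot be told apart. Intervals below are exact 95% intervals for counting error only.

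Reg3b and Reg3g are made by the epithelium in response to microbes and to the cytokine IL-22, which signals through STAT3. REG3G binds peptidoglycan and kills Gram-positive bacteria, and Reg3-deficient mice carry more bacteria at the mucosal surface. Reg1 was first described in regenerating pancreatic islets, and Reg4 is known from enteroendocrine cells and from deep crypt secretory cells of the colon.

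In GRCm38 (mm10), Reg3b lies on chromosome 6 from 78370657 to 78373466 on the plus strand, and Reg3g from 78466269 to 78468872 on the minus strand. Reg3a (78380709 to 78383827) and Reg1 (78422711 to 78428667) lie between them on the plus strand, so that these genes, with Reg2 and Reg3d, fill 98.2 kb. Reg4 lies apart, on chromosome 3 from 98222156 to 98236748 on the plus strand. All are annotated as protein coding. The 250 bases upstream of the RefSeq start (GRCm38.p6) are shown for Reg3b and Reg3g, whose levels went together across cell types, and for Reg1, whose levels were more restricted. Capitals mark the motifs TATAAAA, TTCNNNGAA (the letters of a STAT site) and CCCTCCC.
Reg3b (chr6:78370635-78370884, plus strand): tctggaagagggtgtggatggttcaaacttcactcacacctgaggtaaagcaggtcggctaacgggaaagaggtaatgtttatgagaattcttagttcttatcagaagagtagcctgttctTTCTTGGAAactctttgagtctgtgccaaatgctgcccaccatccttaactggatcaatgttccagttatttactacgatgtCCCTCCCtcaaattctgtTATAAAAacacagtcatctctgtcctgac
Reg3g (chr6:78468875-78469124, minus strand): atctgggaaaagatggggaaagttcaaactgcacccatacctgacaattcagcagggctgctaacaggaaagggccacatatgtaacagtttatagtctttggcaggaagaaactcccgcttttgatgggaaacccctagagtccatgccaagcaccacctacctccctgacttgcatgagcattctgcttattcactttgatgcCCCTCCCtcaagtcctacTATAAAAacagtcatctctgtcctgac
Reg1 (chr6:78425733-78425982, plus strand): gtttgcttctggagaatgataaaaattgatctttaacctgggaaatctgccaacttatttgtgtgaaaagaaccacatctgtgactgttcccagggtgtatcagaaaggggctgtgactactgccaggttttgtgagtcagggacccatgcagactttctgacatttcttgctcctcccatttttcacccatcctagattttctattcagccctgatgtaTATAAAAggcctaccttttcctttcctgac
TATAAAA was found 29 bases before the start in Reg3b, 27 in Reg3g and 30 in Reg1, and in 4.98% of 32851 such upstream windows searched on both strands. TTCNNNGAA was found in Reg3b, as TTCTTGGAA 129 bases before the start, but not in the windows of Reg1, Reg3a, Reg3g and Reg4, and 7.02% of all windows hold it. CCCTCCC lay 47 bases before the start in Reg3b and 45 in Reg3g, and 19.7% of windows hold it on either strand. The windows of Reg3b and Reg3g were 68.4% identical, against 46.1% for Reg3b and Reg3a. These matches are letters in a window, and no binding was measured. For Reg3b and Reg1 the RefSeq start lies inside the gene range given above, which is that of GENCODE vM21. The longest stretch shared by the Reg3b and Reg3g transcripts was 35 bases, and their longest transcripts were 67.5% identical, so most reads could tell them apart, but how reads matching both were handled is not stated.

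After filtering, 6963 WT and 4941 MG53-TG cells were kept, of which 6119 and 4606 were epithelial, with median depths of 14035 and 17950 UMIs per kept cell. Clustering without the 5 genes and Trim72 gave 8 epithelial types named from fixed marker lists, here called X-like. The transgene matched the labels: in epithelial cells the Trim72 level, as counts per 1000000 UMIs (CPM), was 0.594 for WT and 50.8 for MG53-TG. The sort did not remove T cell-like cells (579 WT and 228 MG53-TG) or an unnamed cluster led by Ms4a4b, Xcl1 and Cd8b1 (236 and 89), and 8 barcodes were kept in both libraries. Free RNA is measured by WT barcodes of 10 to 99 UMIs, which held Reg3b at 11915 CPM, Reg3g at 4283, Reg4 at 374, Reg1 at 368 and Reg3a at 41.0 CPM. The MG53-TG table had no such barcodes, so T cell-like cells, which should lack these genes, were used as a reference in both libraries. In them Reg3b was at 674 CPM in WT and 343 in MG53-TG, and Reg3g at 280 and 143 CPM, and in the unnamed cluster Reg3b was higher, at 823 and 505 CPM. The T cell-like cells had median depths of 2826 and 3571 UMIs per cell, below the medians over all kept cells. Their median cell held 2 (WT) and 1 (MG53-TG) Reg3b UMIs, against 3 and 2 in tuft-like and 7 and 4 in goblet-like cells. Levels in CPM thus compare cells of unlike depth, and the effect of depth on this reference was not tested.

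The kit reads transcript ends, so levels are not divided by transcript length. Of all epithelial UMIs, the 5 genes together made up 2.36% for WT and 1.55% for MG53-TG, and Reg3b alone was 71.5% and 71.2% of that. Reg3b summed to 1789958 UMIs (16880 CPM) in WT and 995198 UMIs (11066 CPM) in MG53-TG, a log2 ratio of MG53-TG over WT of -0.61 (-0.613 to -0.606), or 1.53-fold lower. Reg3g was at 5903 and 3819 CPM, a log2 ratio of -0.63. Reg4 was at 319 and 205 CPM, a log2 ratio of -0.64. Reg1 (462 and 400 CPM) and Reg3a (48.1 and 42.5 CPM) differed less, by -0.21 and -0.18. So Reg3b, Reg3g and Reg4 were past 1.5-fold lower and Reg1 and Reg3a were not (Reg4 fell short of it, at -0.58, without doublet removal), where 2.87% of the 14656 genes with 30 or more UMIs were past 1.5-fold lower and 6.77% past 1.5-fold higher. Since the choice of genes rested on these values, the count is not read against that share.

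The sums follow the composition of the sample as well as the level in each cell. Enterocyte-like cells were 23.4% of WT and 22.4% of MG53-TG epithelial cells, but absorptive progenitor-like cells were 18.3% against 9.36%, stem-like cells 14.8% against 9.77% and goblet-like cells 25.1% against 38.5%. With each type weighted equally, the log2 ratios of Reg3b and Reg3g were -0.62 and -0.67. Over the median epithelial cell the gap was wider, at 3023 against 583 CPM for Reg3b.

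Reg3b and Reg3g were highest in the absorptive cells. Reg3b, on the CPM scale, was 50885 in WT and 38846 in MG53-TG enterocyte-like cells and 25583 and 13200 in absorptive progenitor-like cells. Lower levels followed in stem-like (6685 and 2509), goblet-like (4080 and 3244), Paneth-like (2834 and 1271), secretory progenitor-like (2120 and 1995) and enteroendocrine-like cells (1911 and 435). In tuft-like cells Reg3b was 813 and 285 CPM, against 674 and 343 CPM in T cell-like cells, and its part of free RNA was not tested. Enterocyte-like and absorptive progenitor-like cells each held a large part of the epithelial Reg3b UMIs, the former 54.0% in WT and 71.3% in MG53-TG and the latter 29.9% and 13.6%.

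**Figure D1:**
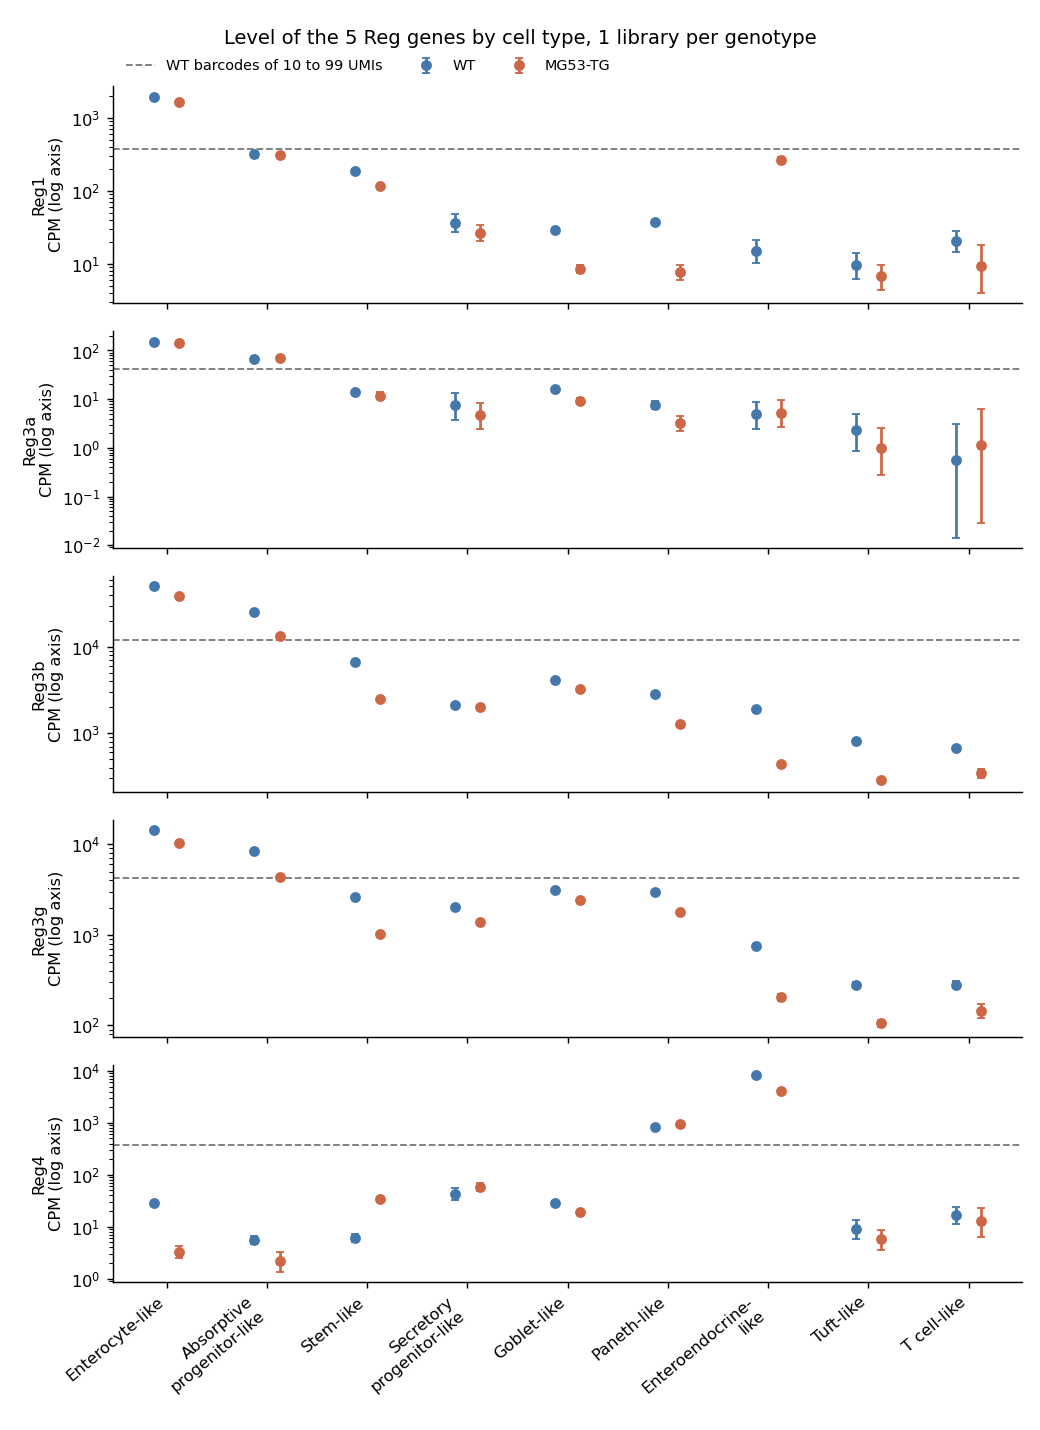
Level of each gene (CPM, log axis) in the 8 epithelial types and T cell-like cells, as points with exact 95% Poisson intervals for 1 library per genotype; the dashed line is the level in WT barcodes of 10 to 99 UMIs. Reg1, Reg3a, Reg3b and Reg3g are highest in enterocyte-like cells, and Reg4 in enteroendocrine-like cells.

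At a depth of 1354 UMIs per cell, reached by random thinning, 98.5% of WT and 96.6% of MG53-TG enterocyte-like cells still had a Reg3b UMI, against 59.8% and 35.1% of T cell-like cells. The share in stem-like cells was 71.9% and 48.4%, and in goblet-like cells 62.8% and 45.6%. By this share several types did not stand above T cell-like cells. Tuft-like cells lay below them, at 39.0% (32.6 to 45.6) and 22.1% (17.4 to 27.4), so the T cell-like share was not a floor common to all types. The share was 54.5% and 29.7% in enteroendocrine-like and, in WT, 55.7% in secretory progenitor-like cells. In WT the intervals of goblet-like cells (60.3 to 65.2) and Paneth-like cells (61.5%, 57.2 to 65.6) also overlapped that of T cell-like cells (55.6 to 63.8). In MG53-TG the interval of Paneth-like cells (42.7%, 37.4 to 48.0) and that of the 105 secretory progenitor-like cells overlapped that of T cell-like cells (28.9 to 41.7). The summed level and the median cell can differ here, as WT secretory progenitor-like cells were at 2120 CPM summed but 499 CPM in the median cell, against 674 and 592 CPM in T cell-like cells. Cells with a high Reg3b share were counted as well. Reg3b made up at least 1% of all UMIs in 77.1% of WT (74.8 to 79.2) and 67.1% of MG53-TG (64.2 to 70.0) enterocyte-like cells. The share was 53.7% and 34.3% of absorptive progenitor-like cells. It was met by 191 of 904 and 27 of 450 stem-like cells, 9.75% and 6.99% of goblet-like cells and 6.97% and 2.31% of Paneth-like cells. No T cell-like cell was that high, in 579 WT cells (0 to 0.635%) or 228 MG53-TG cells (0 to 1.60%).

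Reg3b was lower in MG53-TG in all 8 epithelial types, those not above T cell-like cells included, and Reg3g in all 8 as well, but the size ranged widely. The log2 ratio of Reg3b was -0.39 in enterocyte-like, -0.95 in absorptive progenitor-like, -1.41 in stem-like, -1.16 in Paneth-like and -0.33 in goblet-like cells. In stem-like cells it was -1.24 in the cluster led by cycling genes such as Top2a (496 WT and 249 MG53-TG cells), which held most of the class, and -2.03 in the cluster led by Olfm4 (408 and 201 cells). Secretory progenitor-like cells and an absorptive progenitor-like cluster (257 WT and 123 MG53-TG cells) were also led by cycling genes. Reg3b was at -1.22 in that cluster. In the other absorptive progenitor-like clusters it was at -1.31 (led by Akr1b8) and -0.52 (led by Fabp6). The log2 ratio of Reg3b was -2.13 in enteroendocrine-like cells, where 1 WT cell held 1546 of 4336 UMIs and the MG53-TG level of 435 CPM lay between the 343 CPM of T cell-like cells and the 505 CPM of the unnamed cluster. There it was -1.35 for the median cell and -3.75 with the T cell-like level subtracted. In secretory progenitor-like cells it was -0.09, where 1 MG53-TG cell held 2317 of 5127 UMIs. It moved with the settings, to -0.66 without the highest cell of each library, -1.15 with a minimum of 2500 UMIs, -1.17 at Leiden resolution 2, -1.19 for the median cell and -1.45 with libraries clustered apart. The median cell also gave wider ratios in stem-like (-2.69), goblet-like (-1.30), Paneth-like (-1.43) and absorptive progenitor-like cells (-1.34), and -0.43 in enterocyte-like cells. The log2 ratios of Reg3g were -0.45, -0.95, -1.35, -0.75, -0.37 and -1.88 in the same order up to enteroendocrine-like cells and -0.55 in secretory progenitor-like cells. Reg3b and Reg3g were 1.5-fold or more lower in 5 of the 8 types each: absorptive progenitor-like, stem-like, Paneth-like, enteroendocrine-like and tuft-like. In tuft-like cells they were at -1.51 and -1.40. Each was lower in 18 of 20 epithelial clusters, and the exceptions were goblet-like. The cluster led by Ido1 (339 WT and 322 MG53-TG cells) was at 0.33 and 0.40. That led by Tmprss15 (82 and 73 cells) was at 0.09 and 0.27. For the median cell both genes were lower there too, at -0.68 and -1.04 and at -0.39 and -0.11. Among all genes tested, 3.97% were 1.5-fold or more lower in enterocyte-like cells, and 2.88% and 2.06% in absorptive progenitor-like and stem-like cells. In goblet-like and secretory progenitor-like cells the share was 4.19% and 2.98%. The share was 4.47% in Paneth-like, 5.81% in enteroendocrine-like and 3.34% in tuft-like cells.

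**Figure D2:**
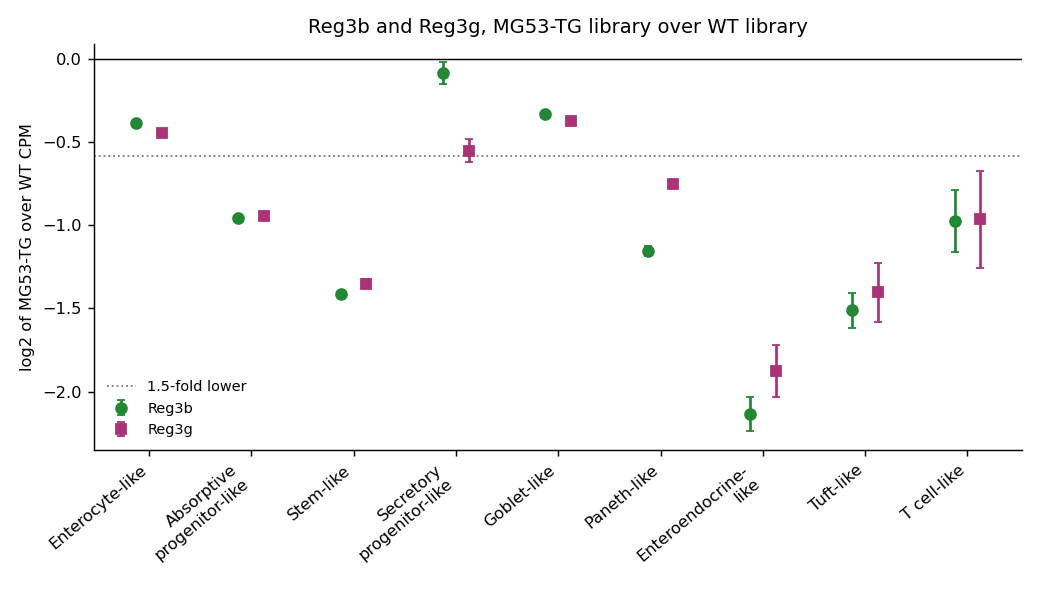
log2 of MG53-TG over WT CPM for Reg3b (circles) and Reg3g (squares) by cell type, with exact conditional binomial 95% intervals; the dotted line is 1.5-fold lower. All points lie below 0, and those of T cell-like cells lie at -0.97 and -0.96.

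Values that move with these ratios were measured beside them. In T cell-like cells, which should lack both genes, Reg3b and Reg3g were also lower in MG53-TG, by log2 ratios of -0.97 and -0.96. There 5.48% of genes were 1.5-fold or more lower. The part of free RNA in the low types was not tested. With the T cell-like level subtracted, Reg3b was at 0.19 in secretory progenitor-like cells, higher in MG53-TG. The summed level of 16 enterocyte markers was higher in MG53-TG in enterocyte-like (0.17, with 13 of 16 markers higher), absorptive progenitor-like (0.61, 12 of 16) and stem-like cells (0.37, 10 of 16), the opposite direction from Reg3b. In Paneth-like cells it was lower, at -0.31 with 14 of 16 markers lower. Most markers were also lower in goblet-like (13 of 16, sum at -0.02) and tuft-like cells (14 of 16, sum at 0.13). No enterocyte marker was at 0 in these types. Of a list of 6 ileal genes, 3 (Fabp6, Slc10a2 and Fgf15) were 1.5-fold or more lower in enterocyte-like cells and 0 higher. There 3.97% of all genes were lower and 3.06% higher. The part of the markers and of the ileal genes in the difference in Reg3b was not tested. In Paneth-like cells the median gene shifted by 0.33 upward, so that relative to the median gene the log2 ratio of Reg3b there was -1.49.

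The balance of the 2 genes differed between cell types. Enterocyte-like cells held 3.58 Reg3b UMIs per Reg3g UMI in WT and 3.73 in MG53-TG (3.71 to 3.75). In goblet-like cells the ratio was 1.29 and 1.33, in secretory progenitor-like cells 1.06 and 1.46, and in Paneth-like cells Reg3g was the more abundant, at 0.943 and 0.713. In WT this turned with a minimum of 500 UMIs per cell (1.06) or without doublet removal (1.03). Among Paneth-like cells with 10 or more UMIs of the pair, 61.9% of WT and 68.7% of MG53-TG cells held more Reg3g, against 3.68% and 7.33% of enterocyte-like cells. The WT barcodes of 10 to 99 UMIs were at 2.78, T cell-like cells at 2.41 and 2.39 and tuft-like cells at 2.92 and 2.71. The part of free RNA in these ratios was not tested.

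**Figure D3:**
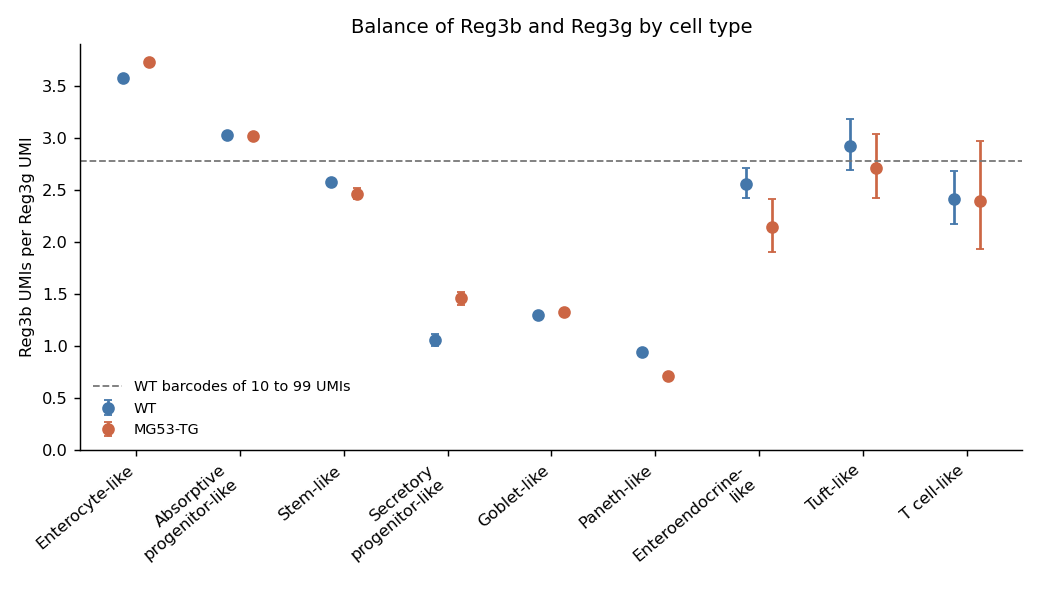
Reg3b UMIs per Reg3g UMI by cell type, with exact conditional binomial 95% intervals, 1 library per genotype; the dashed line is the ratio in WT barcodes of 10 to 99 UMIs. Enterocyte-like cells lie above the line and goblet-like and Paneth-like cells below it.

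Cell by cell, the 2 genes were compared within each type. Across thinned enterocyte-like cells, Pearson's r of their log counts was 0.83 in WT (1434 cells) and 0.78 in MG53-TG (1031 cells), and in Paneth-like cells 0.59 and 0.63. In enteroendocrine-like cells it was 0.54 in WT (286 cells) but -0.05 in MG53-TG (182 cells). Reg3b and Reg1 were less alike, at 0.22 and 0.17 in enterocyte-like cells. These are descriptions over cells of 1 library, which share its free RNA, and low counts weaken them. Goblet-like cells with at least 1% Reg3b (150 in WT and 124 in MG53-TG) held goblet markers at 190950 and 225164 CPM, against 220615 and 213787 CPM in the other goblet-like cells. Their enterocyte markers summed to 2986 and 3403 CPM, against 2706 and 2633. In stem-like cells, those with at least 1% Reg3b held stem markers at 994 CPM (WT) and 940 CPM (MG53-TG), whereas the others held 2587 and 3305 CPM. Paneth-like cells with at least 1% Reg3b (38 and 8) held Paneth markers at 196783 and 203616 CPM, against 356666 and 291274 in the rest, and enterocyte markers at 7511 and 16940 CPM, against 1440 and 1007. The 5 such WT enteroendocrine-like cells held enteroendocrine markers at 13223 CPM, against 95369 in the rest. Enterocyte markers in high stem-like cells were at 4109 and 6276 CPM, against 3086 and 4149 in the rest. High cells were also deeper, with medians of 24620 and 33921 UMIs against 21514 and 26558 in stem-like cells and 31265 and 27977 against 19105 and 20050 in Paneth-like cells. High stem-like and Paneth-like cells thus had less of their own markers in both libraries, and high goblet-like cells in WT but not in MG53-TG.

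Among absorptive cells, ordered into 5 bins by landmark genes of the villus bottom and top, the summed Reg3b level was higher in each bin up to bin 4 and lower in bin 5. In WT it was 16021, 33523, 53725, 62862 and 41127 CPM from bin 1 to bin 5, and in MG53-TG 5504, 17601, 43644, 48422 and 33367 CPM. The log2 ratio of the sums was -1.54 in bin 1 and -0.93 in bin 2, against -0.30, -0.38 and -0.30 in the upper bins. The median cell gave another course, at 6774, 23474, 41415, 29463 and 15022 CPM in WT and 1549, 10547, 35013, 32564 and 7720 CPM in MG53-TG. By that measure the peak was in bin 3 in both libraries, and in bin 4 the MG53-TG level was the higher. Reg3g followed the same course, with log2 ratios of -1.31 in bin 1 and -0.32 in bin 5. Fewer MG53-TG cells lay in bin 1 (14.3% against 23.3%) and more in bin 5 (24.2% against 17.6%). Reg3a also peaked in bin 4, at 198 and 186 CPM, and Reg1 in bin 3, at 1605 and 1685 CPM. The position of the peak also depended on the mitochondrial limit: at 50%, which adds absorptive cells with much mitochondrial RNA, Reg3b and Reg3g were highest in bin 2 in both libraries. Most villus bottom UMIs in enterocyte-like cells were of Dmbt1 (1515 and 1121 CPM), against 66.2 and 63.7 CPM for Hmgb2. Dmbt1 was itself lower in MG53-TG (log2 ratio of -0.43), and its part in the bins was not tested. Bins are ranges, not cell types.

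**Figure D4:**
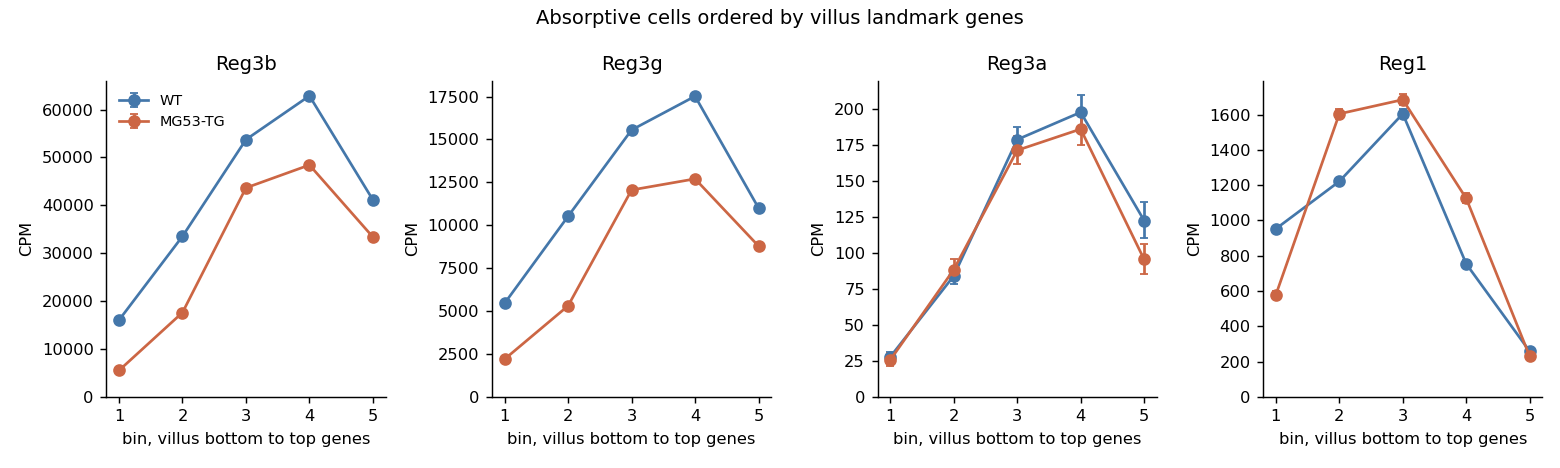
CPM of Reg3b, Reg3g, Reg3a and Reg1 in absorptive cells (enterocyte-like and absorptive progenitor-like) in 5 bins from villus bottom to top genes, with exact 95% Poisson intervals, 1 library per genotype. Reg3b and Reg3g are lower in MG53-TG in every bin, while Reg1 is higher there in bins 2 to 4.

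Levels were also compared by gut region genes. Enterocyte-like cells were split by whether UMIs of an ileal list (such as Fabp6, an ileal bile acid binding protein) exceeded those of a proximal list (such as Lct, lactase). Most UMIs of the proximal list came from the fatty acid binding protein genes Fabp1 (14008 and 17968 CPM) and Fabp2 (7235 and 8904). Lct was at 177 and 180 CPM. Of the ileal list Ccl25 was the highest, at 904 and 957 CPM, against 498 and 272 CPM for Fabp6. Reg1 was at 2040 CPM in WT and 1690 in MG53-TG proximal cells, but at 13.9 and 9.16 CPM in ileal cells, below the WT free RNA level. Reg3g went the other way in WT, at 13818 CPM in proximal and 22481 CPM in ileal cells, whereas in MG53-TG the levels were 10409 and 10351 CPM. Reg3b was 51106 and 39177 CPM in proximal and 46244 and 20754 CPM in ileal cells. The Reg3b to Reg3g ratio was 3.70 and 3.76 in proximal and 2.06 and 2.01 in ileal cells. Absorptive progenitor-like cells differed from this, with Reg3b at 18129 and 10497 CPM in proximal but 59372 and 45114 CPM in ileal cells. Reg3g was at 5915 and 3410 CPM against 19872 and 15796 CPM there, so that both were higher in ileal cells in both libraries. Their ratio was 3.07 and 3.08 in proximal and 2.99 and 2.86 in ileal cells. Ileal cells were 13.9% of WT (200 cells) but 5.82% of MG53-TG (60 cells) enterocyte-like cells. Their median depths were 3208 and 4294 UMIs, against 13203 and 18822 in proximal cells. Among absorptive progenitor-like cells, ileal cells were 19.7% (221 cells) in WT and 9.98% (43 cells) in MG53-TG. Which gut segments each library held is not given in the labels, so region and sampling cannot be told apart. The log2 ratio of Reg3b was -0.38 in proximal and -1.16 in ileal enterocyte-like cells, and -0.79 and -0.40 in absorptive progenitor-like cells. Both of the latter were smaller in size than the -0.95 of the whole class. The part of the differing share of ileal cells in that value was not tested.

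Reg1 was carried by few cells. The highest 33 of 1434 WT and 28 of 1031 MG53-TG enterocyte-like cells held as many Reg1 UMIs as all the others of the type. Among absorptive cells, those with 10 or more Reg1 UMIs were 14.3% of the WT and 21.1% of the MG53-TG cells, and these held 95.7% and 97.2% of the Reg1 UMIs. In such cells Reg3b was at 47020 and 36512 CPM, against 32380 and 26309 CPM in cells with 1 to 9 and 37082 and 27007 CPM in cells with none. The classes rest on raw UMIs and differ in depth, with medians of 21518 and 24900 UMIs in the highest class and 10274 and 14448 in cells with none. Fabp6 was at 53.2 and 2.27 CPM in the highest class, against 1639 and 804 CPM in cells with none. The proximal list summed to 19054 and 27150 CPM against 12046 and 18781 CPM, but Lct was lower in the highest class, at 76.1 and 76.4 CPM against 113 and 158 CPM. In enteroendocrine-like cells 34 WT and 549 MG53-TG UMIs of Reg1 were counted, and 285 and 228 of the latter were in 2 cells.

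Reg4 had another pattern. Enteroendocrine-like cells held 55.3% of WT and 45.5% of MG53-TG epithelial Reg4 UMIs and Paneth-like cells 40.3% and 47.4%. It lay almost wholly in 1 of the 2 enteroendocrine-like clusters, whose first genes were Afp and Tph1 (the first enzyme of serotonin synthesis in these cells), where its CPM was 22993 over 132 WT cells and 13710 over 70 MG53-TG cells. In the other, led by peptide hormone genes, it had 16 and 3 UMIs. About equal shares of the Tph1 cluster, 49.2% and 48.6%, had 10 or more Reg4 UMIs, and in these Afp was at 8307 and 3848 CPM against 19.8 and 6.05 CPM in the rest. Chga, a granule protein, was at 28313 and 22029 CPM against 11828 and 6393 CPM, while Tac1, a tachykinin gene, was the lower in cells with Reg4, at 2932 and 2403 CPM against 5043 and 4557 CPM. In Paneth-like cells Reg4 was at 821 and 935 CPM, a log2 ratio of 0.19, but -0.15 relative to the median gene. Reg3a followed the absorptive pattern at a low level, at 151 and 143 CPM in enterocyte-like cells.

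Across the 8 types in both libraries (16 points, genes with 500 or more epithelial UMIs), the genes most like Reg3b were Reg3a, Duox2, Ptk6, Duoxa2 and Reg3g, with r from 0.94 to 0.96. Those most like Reg3g were Duox2, Reg3b, Oaf, Slc6a20a and Fabp2, with r from 0.88 to 0.97. Duox2 and Duoxa2 form an epithelial oxidase that makes hydrogen peroxide. For Reg4 they were Pla2g2f, Fam222a, Cd83, Slc18a1 (a monoamine transporter) and Ets1, with r from 0.89 to 0.93. The points share library, free RNA and clustering, and no p is given.

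Genes of the pathway upstream of Reg3b and Reg3g were counted from fixed lists, with a call at 1.5-fold on the point value. Of the 10 IL-22 and STAT3 chain genes with enough UMIs in epithelial cells, 0 were 1.5-fold or more lower and 1, the receptor gene Il22ra1 (1.84 and 2.78 CPM), was higher, with a median log2 ratio of 0.15 beside 0.09 over all genes. The 3 most abundant were Jak1 (54.7 and 64.2 CPM), Stat3 (44.3 and 46.6) and Il10rb (36.8 and 42.6). Of 13 IL-22 or STAT3 targets, 3 were lower and 1 higher, where 2.87% of all genes were lower and 6.77% higher, as for the other lists in the epithelial sum. Saa1, an acute phase protein, was at 51.6 and 13.6 CPM, Lcn2, which binds bacterial siderophores, at 24.5 and 6.85 and Saa3 at 0.424 and 0.211, while Muc1, a cell surface mucin with 89 UMIs in all, was at 0.368 and 0.556 CPM. These and Il22ra1 were named after their values were seen, while Pigr (1799 and 2033), Retnlb (105 and 106) and Il18 (81.3 and 97.1 CPM) were named by abundance. The list was also counted in 2 types, with other genes past the UMI minimum and no test of the difference from the sum. In enterocyte-like cells 5 of 11 were lower (Saa1, Lcn2, Fut2, Socs3 and, on 41 and 11 UMIs, Retnlb, whose part of free RNA was not tested), where 3.97% of all genes were lower, and Nos2 was at 30.6 and 46.6 CPM. Fut2 was at 6.06 and 2.41 CPM there but at 10.2 and 13.8 CPM in the epithelial sum. In stem-like cells 4 of 8 were lower (Lcn2, Socs3, Duox2 and Duoxa2), where 2.06% of all genes were lower, and the median log2 ratio of the list was -0.48, against 0.14 in enterocyte-like cells and 0.04 in the epithelial sum. Duox2 and Duoxa2 were at log2 ratios of 0.28 and 0.49 in enterocyte-like cells. Of 14 microbe-sensing genes 1, Tlr1 (1.58 and 0.845 CPM), was lower and 0 were higher, and Nlrp6 was at 119 and 112 CPM. Irak1 was at 34.3 and 34.6 CPM and Irak4 at 17.7 and 18.5 CPM. Of 10 other antimicrobial genes, 3 were lower (Lyz1, Lcn2 and Dmbt1, the last at 1785 and 1009 CPM) and Zg16 was higher. Lyz1, a Paneth cell lysozyme, was at 5118 and 3368 CPM and Zg16, a goblet lectin, at 15784 and 24235 CPM. Itln1, also among the 3 most abundant of the list, was at 4611 and 3730 CPM. Paneth-like cells were 8.91% of WT and 7.53% of MG53-TG epithelial cells, and goblet-like cells 25.1% and 38.5%. The part of composition in these sums was not tested. The candidate Reg receptor gene Extl3 was at 7.35 and 8.26 CPM.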

How the data were processed

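Droplet 3′ RNA libraries of sorted intestinal epithelial cells, 1 WT and 1 MG53-TG, were analysed. The authors deposited raw UMI counts per gene and barcode as made by Cell Ranger (per the file headers, version 4 in WT and version 6.0.1 in MG53-TG). The submitters' processing notes name mm10 and Seurat. The WT table holds 2005718 barcodes and that of MG53-TG holds 12361, none under 500 UMIs. Barcodes under 1354 UMIs, under 200 genes or over 25% mitochondrial UMIs were dropped, and those with the highest Scrublet scores were removed at 0.8% per 1000 cells (438 in WT and 212 in MG53-TG), since its own threshold marked 0.0135% and 0.0388%. Cells were clustered with scanpy 1.11.5 (2000 variable genes, 30 components, 15 neighbours, Leiden resolution 1.0) without the 5 Reg genes and Trim72, and named from at least 3 markers. Counts were summed per type and library and given as CPM. With 1 library per genotype no test was possible and no p is given. Intervals (Poisson, Clopper-Pearson, conditional binomial, 95%) cover counting error only, and reads sharing a UMI were collapsed. Log2 ratios are of MG53-TG over WT, with 0.5 added for calls across all genes with 30 or more UMIs. The calculations were tested on simulated data. The members, lists and tests were chosen with earlier results of these data known. Named by rule were the Reg genes, the 3 genes with most UMIs of each pathway list and the 5 genes most like Reg3b, Reg3g and Reg4. Not all of these are printed. Other pathway genes, such as Tlr1, Socs3, Fut2 and Nos2, were named after their values were seen. Alternatives were the filters, doublets, clustering, scaling, averaging and background.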

Additional observations from a re-analysis of the deposited data

Results flagged for a closer look

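In 4 cases a gene was higher in MG53-TG in 1 cell type, with its counting interval above 0, while its epithelial sum was lower, and none of these differences between types was tested. The log2 ratio of Reg1 was 4.14 in enteroendocrine-like cells against -0.21 in the sum, where 2 MG53-TG cells held most of its UMIs. That of Reg4 was 2.53 in stem-like cells against -0.64 in the sum, and -0.65 without the highest cell of each library. Reg4 was at 0.45 in secretory progenitor-like cells, on 62 WT and 151 MG53-TG UMIs. Reg4 was at 0.19 in Paneth-like cells and at -0.15 there with scaling by the median of ratios.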

How the results depend on the processing

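Of 111 values by type and setting, 110 were below 0 for Reg3b, and all 111 for Reg3g. The exception was Reg3b in secretory progenitor-like cells with the T cell-like level subtracted, at 0.19, and the cause was not tested. All log2 ratios of the epithelial sums stayed below 0. With scaling by the median of ratios they were -0.30 (Reg1), -0.27 (Reg3a), -0.70 (Reg3b), -0.72 (Reg3g) and -0.73 (Reg4). As the mean of single-cell CPM they were -0.32, -0.42, -0.74, -0.74 and -0.76 in that order. With the T cell-like level subtracted, Reg1 was at -0.18, Reg3b at -0.60 and Reg3g at -0.61. With types weighted equally, Reg1 was at -0.11, Reg3b at -0.62, Reg3g at -0.67 and Reg4 at -0.85. A mitochondrial limit of 50% gave -0.18 for Reg1, -0.64 for Reg3b and -1.04 for Reg4. A minimum of 500 UMIs gave -0.63 for Reg3b and -0.65 for Reg3g, and one of 2500 UMIs -0.17 for Reg1 and -0.76 for Reg4. Without doublet removal Reg1 was at -0.14, Reg3b at -0.60 and Reg4 at -0.58, which for Reg4 is no longer 1.5-fold. With the 5 genes left out of the totals, Reg3b was at -0.62 and Reg3g at -0.64. In settings chosen after seeing the data, leaving out the highest cell gave -0.25 for Reg1 and -0.66 for Reg4, and the median cell gave -2.37 for Reg3b and -1.91 for Reg3g.

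The median over the 8 types was -1.06 for Reg3b and -0.85 for Reg3g. It was -1.21 and -1.12 at Leiden resolution 2, -1.48 and -1.35 with libraries clustered apart, -1.32 and -1.23 for the median cell, -1.21 and -1.11 at 2500 UMIs and -1.24 and -1.05 with the median of ratios. For Reg3b it was -1.21 with the Reg genes kept for clustering and -1.21 without doublet removal. At 1.5-fold, 5 types were lower for each gene instead of 8. The share of all genes 1.5-fold lower was 0.899% at 300 UMIs, 6.28% with 1 UMI in each library and 3.89% with the median of ratios, and the share higher was 3.79%, 11.6% and 4.75%. No paired analysis was possible because there was 1 library per genotype, and for the same reason no library could be left out.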
